A study of Mus musculus with 87 samples.

Results

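The 10 genes described here mark the fetal liver or its biliary and progenitor cells: Afp, H19, Igf2, Gpc3, Dlk1, Cd24a, Spp1, Sox9, Krt19 and Epcam. They were taken by symbol from the table of log2 RPKM (reads per kilobase of exon, scaled to the depth of the library), each matching 1 of its 37991 genes. The fetal liver transcribes Afp, H19, Igf2 and Dlk1 at high levels, and hepatocytes silence them after birth. Spp1, Sox9, Krt19, Epcam and Cd24a are used in the adult liver to recognise the epithelium of the bile ducts and the progenitor-like cells that expand around the ducts after some injuries. Partial hepatectomy (PH) is the removal of liver lobes, after which the remaining hepatocytes divide until the mass of the organ is restored.

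Poly(A) RNA of individual livers of male C57BL/6 mice was sequenced, and 80 livers in 19 groups were analysed. The mice were 12 to 14 weeks old at the time of surgery. All mice had been kept on a cycle of light and dark with food only between ZT12 and ZT24, where ZT0 is lights on. PH and sham surgery (opening of the abdomen without resection) were performed at ZT2. Livers without surgery came from 0 h (C0, ZT2, 9 livers), from ZT6 (C4, 3) and from the 4-week time point (C4W, 2). Sham livers were collected at 1 h (S1, 6), 4 h (S4, 5), 10 h (S10, 3), 20 h (S20, 3) and 48 h (S48, 3). PH livers were collected at 1 h (X1, 6), 4 h (X4, 3), 10 h (X10, 6), 20 h (X20, 6), 28 h (X28, 3), 36 h (X36, 6), 44 h (X44, 3), 48 h (X48, 5), 72 h (X72, 3), 1 week (X1W, 3) and 4 weeks (X4W, 2). Since the food and light cycles went on after surgery, the time of day of X4, X10, X20, X28, X36 and X44 differs from that of C0. The 60-h PH group and X4 replicates 1 to 3 were not analysed here. By the study's methods the surgeries fell into 3 periods. C0 livers came from each, C4 from the third only, in which no liver was operated on, and S10, S20, C4W and X4W from the second only. S48, X28, X44, X48, X72 and X1W came from the first only, and the labels do not give the period of the livers of the other groups.

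The estimated depth was 12.2 to 48.8 M reads per library, with a median of 26.7 M. Summed RPKM of 5 hepatocyte genes lay between 24160 and 57490 in every library, and that of 7 genes of pancreatic acinar cells never exceeded 0.340. C0 replicate 8 stood apart from the other resting livers, with a summed RPKM of 79.8 over 5 macrophage genes (16.9 at most in the others). In bulk RNA, fewer cells of a type and less RNA per cell cannot be told apart.

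Levels of the 10 genes were low, apart from Spp1. Spp1, which encodes the secreted phosphoprotein osteopontin, lay between 10.8 and 66.95 RPKM across the 80 livers. In C0 the means of Cd24a and Sox9 were 1.68 ± 0.616 and 1.64 ± 0.288 RPKM, those of Krt19 and Epcam 1.07 ± 0.522 and 1.02 ± 0.402, and those of Gpc3 and Afp 0.614 ± 0.391 and 0.330 ± 0.157 (SD, n = 9). Igf2, Dlk1 and H19 stood at a few reads per library. Of the 10 genes, 8 exceeded a log2 RPKM of −1.5 in at least 1 library and entered the tests, as did 15396 of all genes. H19 passed this threshold only in X36 replicate 2, and Igf2 and Dlk1 passed it in no library.

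In mm9, H19 and Igf2 lie on the minus strand at chr7:149761434-149764048 and chr7:149836673-149852721, and Dlk1 on the plus strand at chr12:110691033-110701546. Gpc3 is X-linked (X:49625603-49967127, minus). Spp1 lies on chr5:104864137-104870069, Cd24a on chr10:43298975-43304068, Sox9 on chr11:112643538-112649074 and Epcam on chr17:88035319-88050446, all on the plus strand, and Krt19 on chr11:100002124-100009979, minus.

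Afp encodes alpha-fetoprotein, the main serum protein of the fetus, and it had the largest difference between PH and sham livers among the 8 genes tested. In C0 its level ranged from 0.146 to 0.695 RPKM with a median of 0.291, which is 7 to 50 estimated reads. The gene lies on the plus strand of chr5:90919740-90937933 (mm9). Upstream sequences of this gene, of Spp1 and of Epcam are shown because Afp and Spp1 were called against sham livers at 48 h and Epcam was most often below C0 (the RefSeq table matched 6 of the 10 genes). Each window holds the 250 bases before the start, from RefSeq, and matched mm9 exactly once. Letters in capitals match TATAAA (the TATA box), GTTAAT (one arm of the palindromic site of the hepatocyte factor HNF1), TGTTTNC (a forkhead-type motif) or AACAAT (a SOX-type motif) on either strand, and none of these matches overlap.
Afp, chr5:90919490-90919739, plus strand: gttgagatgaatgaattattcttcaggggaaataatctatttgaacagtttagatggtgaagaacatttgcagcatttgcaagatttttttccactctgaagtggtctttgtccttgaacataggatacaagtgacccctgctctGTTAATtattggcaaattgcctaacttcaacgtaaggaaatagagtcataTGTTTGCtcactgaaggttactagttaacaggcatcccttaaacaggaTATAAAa
Spp1, chr5:104863880-104864129, plus strand: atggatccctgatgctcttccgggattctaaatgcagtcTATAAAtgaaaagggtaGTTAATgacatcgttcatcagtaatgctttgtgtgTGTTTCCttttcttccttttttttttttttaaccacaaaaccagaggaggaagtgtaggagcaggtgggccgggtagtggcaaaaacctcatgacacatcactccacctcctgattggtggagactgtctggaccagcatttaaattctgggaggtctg
Epcam, chr17:88035069-88035318, plus strand: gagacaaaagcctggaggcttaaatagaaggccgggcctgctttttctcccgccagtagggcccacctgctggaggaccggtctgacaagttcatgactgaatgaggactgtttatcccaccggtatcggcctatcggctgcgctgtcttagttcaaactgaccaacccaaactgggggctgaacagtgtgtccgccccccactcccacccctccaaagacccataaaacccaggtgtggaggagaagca
The Afp window held 1 match each of the HNF1, forkhead and TATA letters, starting 105, 55 and 7 bases before the start. Spp1 held the same 3 motifs, starting 194, 159 and 211 bases before it, and the Epcam window held none of the 4. Among all 32851 RefSeq windows of this length, TATAAA was found in 12.4%, GTTAAT in 6.43%, TGTTTNC in 17.8% and AACAAT in 9.42%.

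The comparison of PH with sham livers of the same hour asks which transcripts responded to the loss of liver tissue rather than to the operation. By the study's methods, S10 and S20 came from the second period only, and X10 and X20 from the first and second. In every comparison of X10 with S10 or X20 with S20, resection and period are therefore partly mixed. The part of the period was not tested. Differences were taken between group means of log2(RPKM + 0.25) and tested with limma. A call required a Benjamini-Hochberg adjusted p under 0.05 together with a difference of over 0.5 in either direction. Over the 5 hours, 3 of 40 tests on the 8 genes were called, all 3 higher after PH, where 10.1% of the tests on all genes were called (7.24% higher and 2.89% lower). After equalising the libraries (each shifted to the same median over the detected genes), the calls were 2 higher and 1 lower. The called genes were Afp and Spp1 at 48 h, where 27.2% of all genes were called, and Cd24a at 10 h. None of the 8 was called at 1 h, 4 h or 20 h, where 0.650%, 8.64% and 7.11% of all genes were.

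Afp rose after PH. At 48 h, Afp stood at 0.664, 0.702, 1.15, 1.25 and 1.02 RPKM in the 5 X48 livers and at 0.0975, 0.0660 and 0.555 RPKM in the 3 S48 livers. The groups did not overlap, and S48 replicate 3 was the sham liver nearest to the PH livers. The log2 fold change was 1.41 ± 0.33 (SE, adjusted p = 0.000396, limma with Benjamini-Hochberg adjustment), and it remained called without any 1 of these 8 livers. All genes shifted upwards at 48 h, with a median log2 fold change of 0.27, and with equalised medians the value for Afp was 0.96 ± 0.32 (adjusted p = 0.014). At 20 h the difference was 0.59 ± 0.32 and at 10 h 0.28 ± 0.32, neither called.

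**Figure D1:**
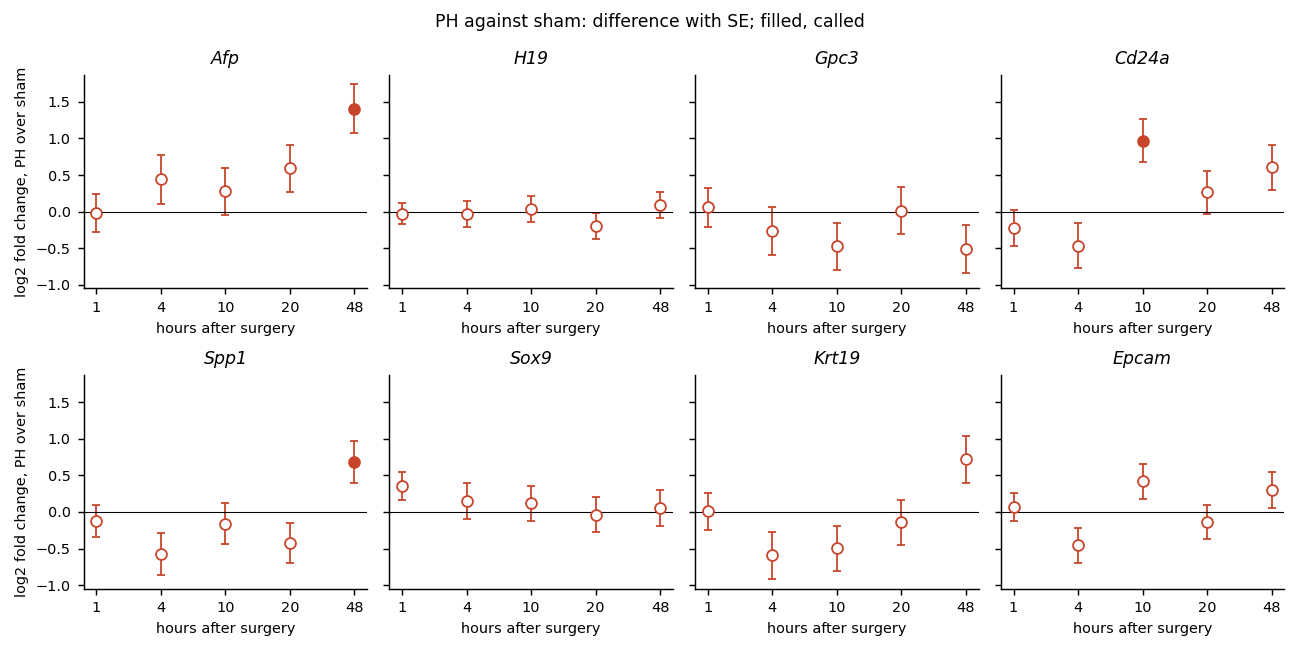
Log2 fold change of PH over sham livers for the 8 genes tested at the 5 hours with sham livers, 1 to 48 h, with its standard error. Hours are evenly spaced, and filled points are the 3 called differences (Afp and Spp1 at 48 h, Cd24a at 10 h).

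Against C0, Afp was called higher in each of the 7 PH groups analysed from 10 to 72 h. These comparisons share the C0 livers. The log2 fold change was 0.70 ± 0.24 in X10, 0.56 ± 0.24 in X20, 0.78 ± 0.30 in X28, 1.40 ± 0.24 in X36, 1.31 ± 0.30 in X44 and 1.07 ± 0.25 in X48, all 6 called (higher calls over all genes: 21.2%, 16.5%, 13.6%, 25.7%, 30.8% and 30.4%). X72 held the largest difference, 2.13 ± 0.30 (adjusted p = 2.16e-08, limma, with 26.6% of all genes higher). The 3 livers of X72 stood at 4.13, 1.40 and 1.83 RPKM, the first being the highest value of the series, and all 3 were above every C0, sham and X1W liver. The calls in X10, X36, X48 and X72 did not depend on any 1 liver, whereas that in X44 was lost without X44 replicate 1 (0.70, adjusted p = 0.0718). In X10, however, Afp split by replicate number. Replicates 1 to 3 (0.464, 0.392 and 0.537 RPKM) lay within the range of C0, and replicates 4 to 6 (0.766, 0.9015 and 1.15) above it. The part of this split in the X10 call was not tested. The call in X20 was lost without any 1 of 10 livers, the call in X28 without any 1 of 5, and both X10 and X20 fell short of a call with equalised medians. X36, X44, X48 and X72 were called against each C0 triplicate (replicates 1 to 3, 4 to 6 or 7 to 9), but X10, X20 and X28 only against replicates 7 to 9.

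In 3 further comparisons the late PH livers and their references had the same time of day. Afp was higher in X72 than in S48 (both ZT2) by 2.47 ± 0.37 (adjusted p = 2.88e-07, with 21.2% of all genes higher), without overlap, the S48 livers being those compared with X48. In X44, Afp was higher than in S20 (both ZT22) by 1.34 ± 0.37 (adjusted p = 0.00283, with 21.4% of all genes higher), but X44 replicate 1 carried this difference. That liver had 2.99 RPKM and the other two had 0.831 and 0.530. Without it the difference was 0.74 and the adjusted p was 0.152. X28 differed from C4 (both ZT6) by 0.73 ± 0.37 (adjusted p = 0.103). X44 and S20, like X28 and C4, came from different periods, so the period and the operation cannot be told apart there. X72 and S48 share the first period. Of the 24 tests of this kind, 6 were called, 3 higher and 3 lower (27.8% over all genes), and with equalised medians 2 were higher and 3 lower.

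Afp was called higher in X72 than in X48, by 1.06 ± 0.33 (adjusted p = 0.029), a call lost without X48 replicate 1 or 2 or X72 replicate 1. Afp then fell between 72 h and 1 week by 1.66 on the log2 scale (adjusted p = 0.000554), to 0.542, 0.468 and 0.584 RPKM in X1W. X1W did not differ from C0 beyond the threshold. Both X4W livers (0.228 and 0.308 RPKM) lay within the range of C0. In sham livers Afp was not called higher than C0 at any hour, and S4 was lower by 0.59 on the log2 scale, a call lost without any 1 of 7 livers. By mean level the order was X72, X44, X36, X48, X28, X10, X20, X1W and S10, with C0 at the 11th place and S4 last. Each group in this order overlapped with the next.

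**Figure D2:**
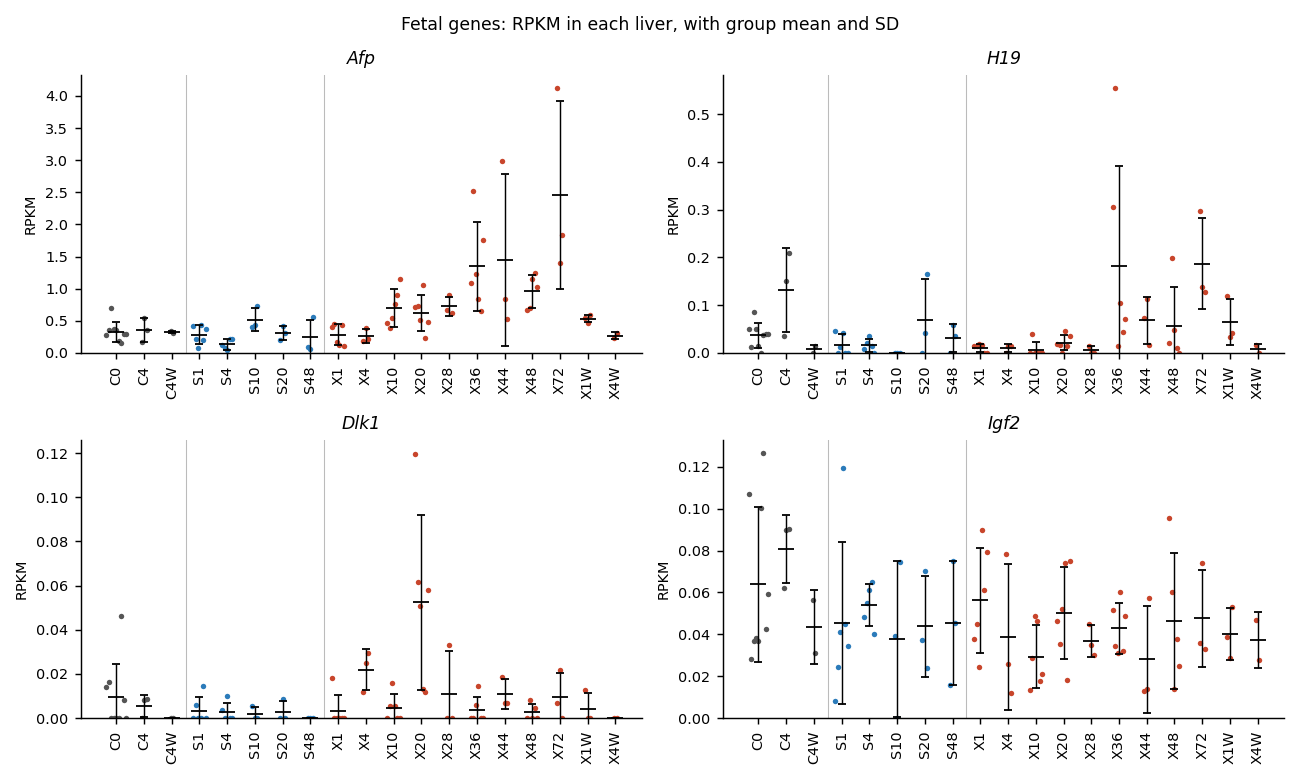
RPKM of Afp, H19, Dlk1 and Igf2 in each liver (points), with the group mean and SD, for groups without surgery (grey), sham (blue) and PH (red). The axes differ between genes and the lower SD is cut at 0. Afp reaches 4.13 RPKM in X72 and Dlk1 stays at or below 0.120 RPKM.

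H19, an imprinted noncoding RNA of fetal tissues, stood at 0 to 7 reads in the 9 C0 livers and at 0 in 24 of the 80 libraries. It lies 72624 bases from Igf2 on chromosome 7, with which it shares control elements. In X72, 18, 8 and 10 reads were estimated, or 0.297, 0.137 and 0.127 RPKM, all above the highest C0 liver (0.0856). H19 rose in X72 against C0 by 0.59 ± 0.16 (adjusted p = 0.00179, limma) and against S48 by 0.62 ± 0.20 (adjusted p = 0.0122). Both calls were lost without X72 replicate 1 (0.42 and 0.45) and with equalised medians (0.24 and 0.27), the latter call also without S48 replicate 1. At 36 h the 6 livers spread from 1 to 28 reads, and X36 differed from X28 by 0.64 ± 0.17, or 0.44 without X36 replicate 2. Since that liver alone let H19 into the tests, this difference is a description. X48 did not differ from S48 beyond the threshold. H19 was called higher in X72 than in X48, but this call was lost in 7 of 8 fits without 1 liver (0.36 to 0.68). C4 held 2, 8 and 10 reads, and both X4 (1 read at most) and X28 (1 read at most) were called lower than C4, by 0.53 ± 0.20 and 0.56 ± 0.20, each call being lost without any 1 of 3 livers.

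Igf2, the growth factor of fetal tissues, was detected at 0 to 17 reads per library and never exceeded 0.127 RPKM, its value in C0 replicate 7. When all 37991 genes were fitted without the threshold, Igf2 was called in no comparison. Its group means lay between 0.0281 RPKM (X44) and 0.0808 RPKM (C4).

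Dlk1, a membrane protein of hepatoblasts, was at 0 in 44 of 80 libraries. The 6 X20 livers held 16, 9, 6, 2, 2 and 8 reads, whereas the 3 S20 livers held 0, 1 and 0 and the 6 X10 livers at most 2. The groups X20 and S20 thus did not overlap. In the fit without the threshold, Dlk1 was higher in X20 than in S20 by 0.25 ± 0.05 (adjusted p = 0.000994) and than in X10 by 0.24 ± 0.04 (adjusted p = 7.03e-06), below the fold required for a call, on a scale that compresses differences between values this close to 0. X28 held 0, 6 and 0 reads, and the difference from X20 was −0.21 ± 0.05 (adjusted p = 0.00114). X4 held 2, 4 and 5 reads, compared with 0 to 2 in S4, a difference of 0.11 ± 0.05 (adjusted p = 0.352). Counts of this size carry a large counting error.

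Where Gpc3, Cd24a, Spp1, Sox9, Krt19 or Epcam was called against C0, it was lower, but many of the tests were not called. Sham livers were called lower than C0 in 18 of 40 tests on the 8 genes and higher in 0, where 18.5% of the tests on all genes were called, 9.72% lower and 8.74% higher. With PH, 29 of 88 tests were lower and 8 higher (over all genes 27.7% called, 9.84% lower and 17.9% higher). Of the 8 higher calls, 7 were Afp and 1 was H19. These counts depended strongly on which resting livers were used. C0 replicates 7 to 9 held the 3 highest Epcam and the 3 highest Spp1 levels of C0. Against C0 replicates 1 to 3 alone the calls were 13 after PH and 4 after sham surgery, against replicates 4 to 6 they were 24 and 8, and against replicates 7 to 9 they were 48 and 20. The labels do not tie these numbers to a period of the experiment, and the part of such a period in these differences was not tested. Comparisons of operated livers with C4 (X4, S4 and X28) set different periods against each other throughout, and there the operation and the period cannot be told apart.

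**Figure D3:**
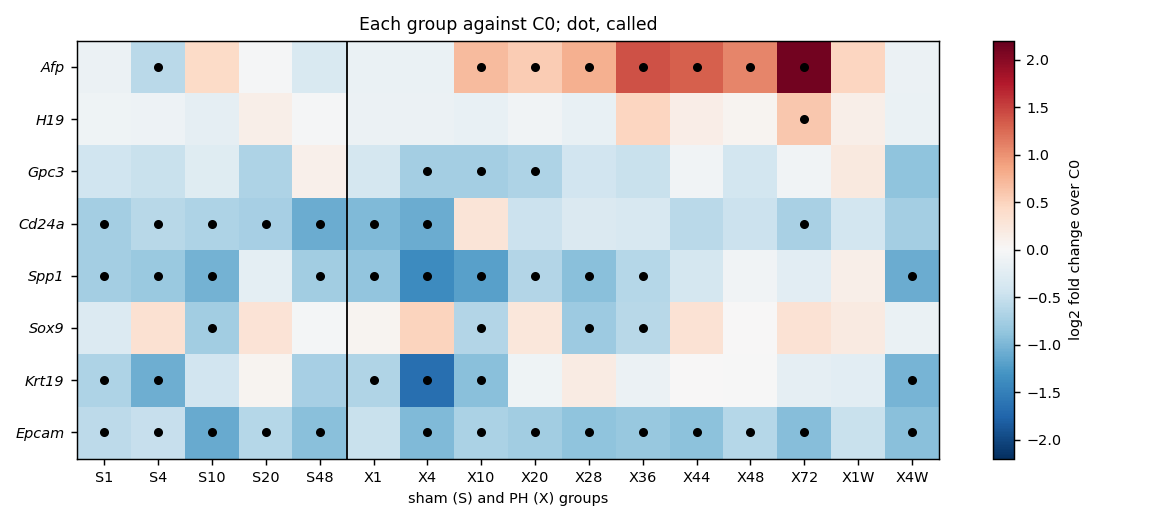
Log2 fold change of each sham (S) and PH (X) group over C0 for the 8 genes tested, from blue (lower) to red (higher), with a dot for each call. Afp is called higher from X10 to X72, and Epcam is called lower in all groups but X1 and X1W.

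Krt19, a keratin of duct epithelium, had its lowest levels 4 h after PH. The 3 X4 livers stood at 0.178, 0.171 and 0.0893 RPKM (5 to 10 reads), below all 9 C0 livers (0.566 to 2.36, median 1.03) and all 3 C4 livers (1.10, 1.06 and 0.561). Krt19 fell by 1.67 ± 0.29 against C0 (adjusted p = 1.79e-06, limma, with 26.9% of all genes lower) and by 1.52 ± 0.36 against C4, taken at the same ZT6 (adjusted p = 0.000234). Neither call was lost without any 1 liver, and against each C0 triplicate the value was called, from −1.43 to −2.10. In S4 (0.308 to 0.406 RPKM) Krt19 was lower than in C0 as well, by 1.07 ± 0.24. All X4 livers lay below all S4 livers, but X4 differed from S4 by −0.59 ± 0.32 (adjusted p = 0.232), which missed the threshold. At 48 h the difference was 0.72 ± 0.32 (adjusted p = 0.0592), with X48 between 0.942 and 1.10 RPKM and S48 at 0.2504, 0.469 and 0.936. Krt19 then rose from X10 to X20 by 0.83 ± 0.25 (adjusted p = 0.00848, and 0.0536 without X10 replicate 1). Krt19 was also called lower in X1, X10, S1 and X4W than in C0, and the calls in X1, S1 and X4W were lost without C0 replicate 7, which had the highest Krt19 level of the series.

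Spp1 followed a similar course. It stood at 16.6, 12.2 and 12.1 RPKM in X4, below the 24.1 to 53.3 RPKM of C0 and the 27.7 to 41.0 RPKM of C4. It fell by 1.39 ± 0.26 against C0 and by 1.35 ± 0.32 against C4 (adjusted p = 6.31e-06 and 0.00025). Lower levels than in C0 were called from X1 to X36, in S1, S4, S10 and S48 and in X4W, 11 calls in all, of which 2 remained with C0 replicates 1 to 3 and 6 with replicates 4 to 6. At 48 h Spp1 was higher after PH than after sham surgery. The X48 livers stood at 29.3, 27.4, 41.4, 34.2 and 37.9 RPKM, all above the S48 livers (20.7, 17.2 and 25.6). The difference of 0.68 ± 0.28 was just past the threshold (adjusted p = 0.0446), was lost without any 1 of 5 of these livers, and was 0.23 ± 0.29 (adjusted p = 0.547) with equalised medians. In S20 the 3 livers varied most, at 18.6, 66.95 and 23.2 RPKM.

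Epcam, an adhesion molecule of duct epithelium, was the member most often below C0, with 14 calls in the 16 sham and PH groups. Its C0 levels ranged from 0.394 to 1.51 RPKM with a median of 0.897. The largest fall was in S10 (0.419, 0.148 and 0.400 RPKM), by 1.11 ± 0.22 (adjusted p = 2.98e-05, limma, with 11.2% of all genes lower), followed by X4, by 0.96 ± 0.22. X4 was also below C4 by 0.97 ± 0.27 (adjusted p = 0.00178), without overlap. Only 1 of the 14 calls, that in S10, held against C0 replicates 1 to 3 alone, 10 held against replicates 4 to 6 and all 14 against replicates 7 to 9. PH and sham livers differed beyond the threshold at no hour, with differences from −0.46 ± 0.24 at 4 h to 0.42 ± 0.24 at 10 h.

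Cd24a, a surface glycoprotein of progenitor and other cells, was called between PH and sham livers at 10 h and at no other hour. The X10 livers ranged from 1.24 to 3.20 RPKM with a median of 1.99, and the S10 livers stood at 0.910, 0.526 and 1.42. The groups overlapped through S10 replicate 3. The difference was 0.97 ± 0.30 (adjusted p = 0.0218, limma; 7.02% of all genes were called at this hour). It was lost without any 1 of 4 livers (S10 replicates 1 and 2, X10 replicates 1 and 5), with an adjusted p of up to 0.246. From X10 to X20 the level fell by 0.76 ± 0.24 (adjusted p = 0.012, and 0.0524 without X10 replicate 1). X10 did not differ from C0 beyond the threshold, whereas Cd24a was called lower than C0 in X1, X4, X72 and all 5 sham groups. None of these 8 calls held against C0 replicates 1 to 3.

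Gpc3, a proteoglycan of the fetal liver that binds growth factors, was called lower than C0 in X4, X10 and X20, by 0.75 ± 0.30, 0.75 ± 0.24 and 0.67 ± 0.24. The C0 livers were themselves widely spread, from 0.187 to 1.52 RPKM. Leaving out C0 replicate 7, the highest, ended the calls in X4 and X20, and none of the 3 held against C0 replicates 4 to 6. X4 was also called lower than C4, by 0.85 ± 0.37, a call lost without any 1 of 5 livers. Gpc3 levels also split by replicate number in some operated groups. In S1, replicates 1 to 3 stood at 0.548 to 0.641 RPKM and replicates 4 to 6 at 0.0916 to 0.211. Replicates 1 to 3 likewise lay above the later ones in S4, X1 and X36, but not in X10 or X20. X4 holds only replicates 4 to 6, and the part of this split in its calls was not tested. At 48 h X48 stood between 0.240 and 0.532 RPKM and S48 at 0.335, 0.528 and 1.15, a difference of −0.51 ± 0.33 (adjusted p = 0.212) that was called with equalised medians (−0.96, adjusted p = 0.0235).

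**Figure D4:**
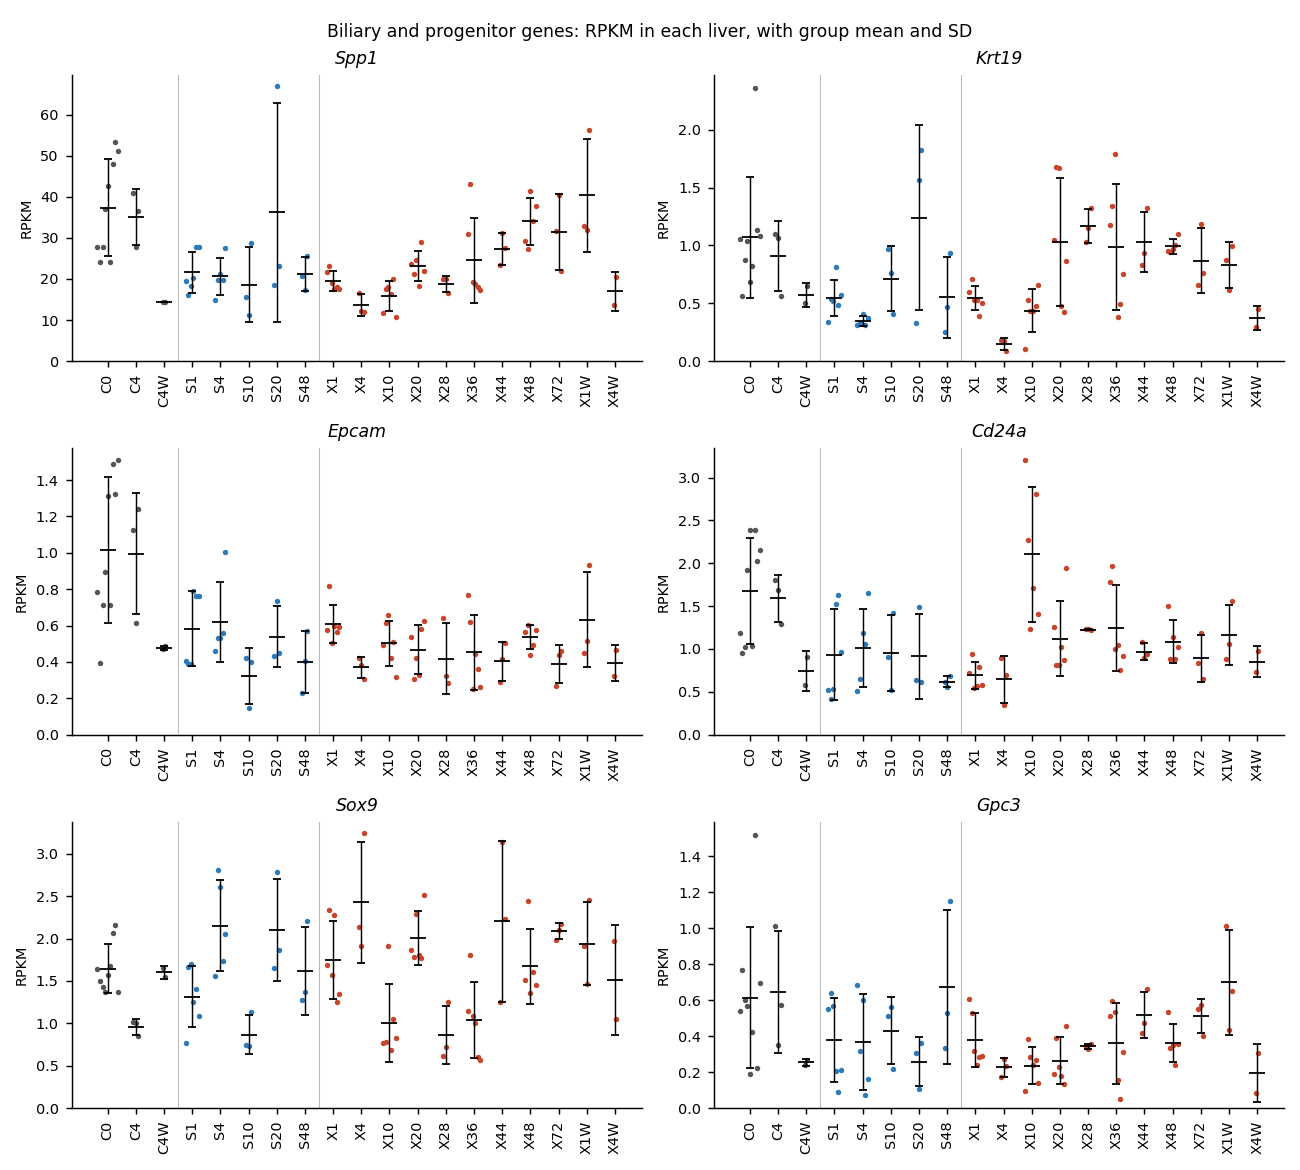
RPKM of Spp1, Krt19, Epcam, Cd24a, Sox9 and Gpc3 in each liver (points), with the group mean and SD, for groups without surgery (grey), sham (blue) and PH (red). The axes differ between genes. Spp1 and Krt19 are lowest in X4, and Sox9 is low in C4, S10, X10, X28 and X36.

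Sox9, the transcription factor of duct and progenitor cells, was higher 4 h after either operation than in unoperated livers of the same time of day. X4 (2.13, 1.91 and 3.24 RPKM) and S4 (1.56 to 2.81) lay above C4 (1.02, 1.01 and 0.852) without overlap. The differences were 1.12 ± 0.28 and 0.96 ± 0.25 (adjusted p = 0.00044 and 0.000657), and neither was lost without any 1 liver, but C4 came from another period than the operated livers. Without surgery, Sox9 was lower in C4 (ZT6) than in C0 (ZT2) by 0.63 ± 0.23, a call lost without any 1 of 9 livers. Against C0 (1.36 to 2.15 RPKM), whose time of day differs, Sox9 was called in neither X4 nor S4. Low levels were seen again at 10 h, in S10 (0.746, 0.729 and 1.13 RPKM) and in X10 (0.680 to 1.91, median 0.806), both called lower than C0, by 0.76 ± 0.23 and 0.65 ± 0.18.

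Between successive PH times, Sox9 rose from X10 to X20 by 0.90 ± 0.20 (adjusted p = 0.000214, limma), fell from X20 to X28 by 1.05 ± 0.24 (adjusted p = 0.00114) and rose from X36 to X44 by 0.92 ± 0.24 (adjusted p = 0.00384, and 0.114 without X44 replicate 2). The high groups X20 and X44 were both taken at ZT22, and the low groups X10, X28 and X36 at ZT12, ZT6 and ZT14. S20, also at ZT22, stood at 1.65, 2.78 and 1.86 RPKM. Sox9 differed between PH and sham livers at no hour beyond the threshold, with values from −0.04 ± 0.24 at 20 h to 0.35 ± 0.20 at 1 h. Of the 64 tests between successive times on the 8 genes, 7 rose (among them H19 from X28 to X36 and from X48 to X72) and 3 fell. Over all genes 9.38% were called, 5.03% higher and 4.35% lower.

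At 4 weeks, none of the 8 genes was called between X4W and C4W (0.0650% of all genes were). Relative to C0, Spp1 was lower both in C4W (14.3 and 14.4 RPKM, by 1.30 ± 0.30, adjusted p = 0.00372) and in X4W (13.7 and 20.4 RPKM, by 1.08 ± 0.30, adjusted p = 0.0159). Each group had 2 livers, and both calls were lost without either of them. The 4 weeks between these groups and C0 and the period they came from cannot be told apart. Over the 5 comparisons with or among unoperated livers, 2 of 40 tests were higher and 10 lower (over all genes 20.6% called, 6.84% higher and 13.8% lower), and 6 of these lower calls were in X4 against C4, where 33.9% of all genes were lower and 11.7% higher.

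Marker genes of 2 epithelial cell types were summed without the members to set beside these levels. Of 8 cholangiocyte genes, the sum was 4.97 to 7.42 RPKM in C0, 1.95 to 2.09 in X4, 1.61 to 2.89 in S4 and 6.58 to 8.73 in C4. The sum thus moved with Krt19, Spp1 and Epcam at 4 h, but not with Sox9. Sox9, also used as a cholangiocyte marker, was called higher in X4 and S4 than in C4, but not than in C0. The part of the sum in the levels of these genes was not tested. At 48 h the sum was 4.32 to 5.46 in X48 and 3.02 to 4.68 in S48. Of 5 mesothelium genes (the mesothelium covers the liver surface and also expresses Krt19), the sum was 0.665 to 6.25 RPKM in C0 and 0.438 to 1.81 in X4. C0 replicate 7 had the highest mesothelium sum in C0 as well as the highest Gpc3 and Krt19 levels, and C0 replicate 5 had the lowest mesothelium and Gpc3 levels. The part of mesothelium in the Gpc3 and Krt19 calls against C0 was not tested.

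Stellate, B cell and macrophage markers were also lower 4 h after surgery than in C4, whereas neutrophil markers were not. In X4 against C4, 5 of 5 stellate, 4 of 4 B cell and 3 of 5 macrophage genes were lower and none higher (33.9% of all genes were lower). Of 5 hepatocyte genes, 2 were lower and 1 higher. No neutrophil gene was called in X4, and in S4 against C4, 3 of 4 were higher. The lower calls in S4 against C4 were 5 of 5 stellate, 4 of 4 B cell and 2 of 5 macrophage genes (31.0% of all genes). The neutrophil sum was 4.36 to 9.25 RPKM in X4, 6.85 to 41.3 in S4 and 1.02 to 4.66 in C4. The macrophage sum was 6.83 to 8.12 RPKM in X4, 6.29 to 16.6 in S4 and 16.3 to 24.4 in C4, and the stellate sum 35.8 to 45.8, 30.4 to 48.9 and 70.2 to 82.9. The B cell sum was 0.155 to 0.302 in X4, 0.0909 to 0.719 in S4 and 2.46 to 4.39 in C4. In C0 it was 0.390 to 3.15, and 3 of 4 B cell genes were called higher in C4 than in C0 (median 0.88, 0.07 over all genes). C0 replicate 8, with the macrophage sum of 79.8, also had the highest Spp1 level of C0 (53.3 RPKM). In X1W the macrophage sum was 21.2 to 46.2 RPKM beside Spp1 levels of 32.0 to 56.3. Other livers did not pair in this way. C0 replicate 9 had 51.2 RPKM of Spp1 with a macrophage sum of 15.0. S20 replicate 2, with the highest Spp1 level of the series (66.95 RPKM), had a sum of 15.8. X20 replicate 6 had a sum of 39.5 with 21.9 RPKM of Spp1. The part of these cell types in the levels of Spp1, Krt19 and Epcam was not tested.

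**Figure D5:**
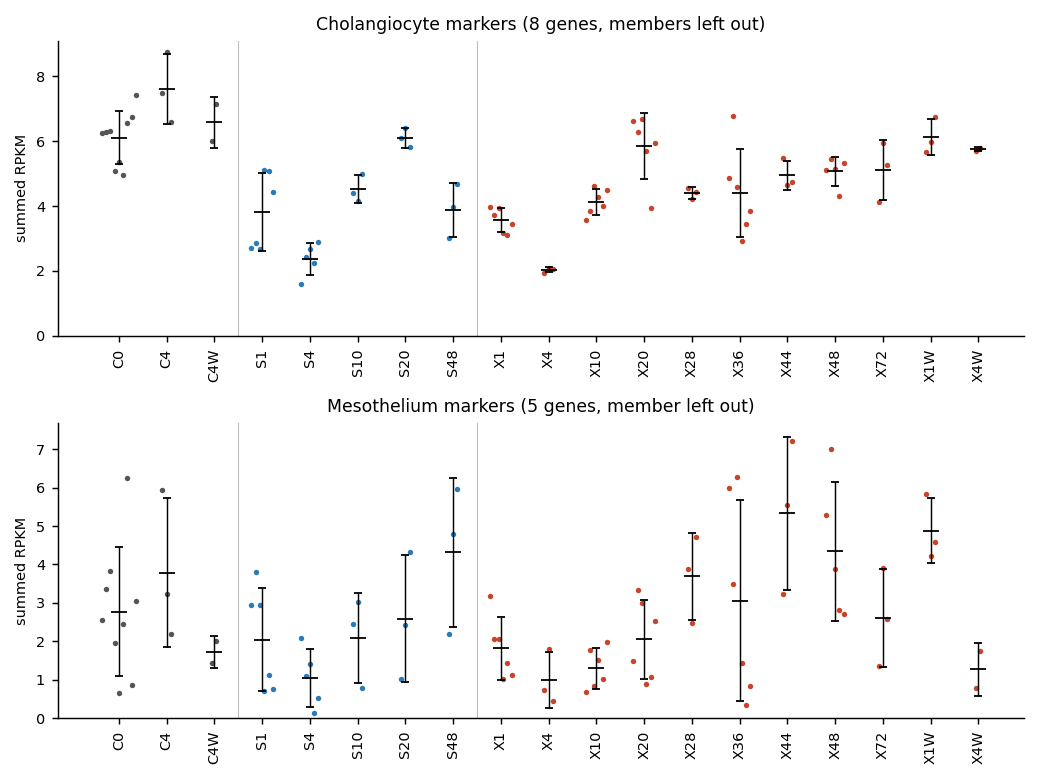
Summed RPKM of 8 cholangiocyte and 5 mesothelium marker genes in each liver (points), with the group mean and SD, for groups without surgery (grey), sham (blue) and PH (red). The cholangiocyte sum is lowest in X4 and S4, and the mesothelium sum varies up to 6.25 RPKM within C0.

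Genes of the same biology gave a background for the 48-h comparison, in which 24.5% of all genes were higher in X48 than in S48 and 2.69% lower. These lists were tested on the values as deposited only. Equalised medians lowered the differences of Afp, Spp1 and Gpc3 at this hour, and their effect on the list calls was not tested. Of 19 tested genes that are fetal or imprinted, 5 rose and 0 fell, with a median log2 fold change of 0.46 compared with 0.27 over all genes, so that their share was close to that of all genes. The 4 largest rises were Hmga1, a chromatin protein (1.39 ± 0.20), Pkm2, a glycolytic enzyme (0.93 ± 0.28), the imprinted Peg3 (0.71 ± 0.25) and Igf2bp2, an RNA-binding protein (0.59 ± 0.17). Cdkn1c, an imprinted inhibitor of the cell cycle, had group means among those most like H19, whose mean was highest in X72. Cdkn1c stood 2.04 ± 0.31 higher in X72 than in S48, where 21.2% of all genes were higher. This gene and hour were chosen after the values were seen, so the difference is a description.

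Of 27 tested biliary and progenitor genes, 10 rose and 0 fell at 48 h (24.5% of all genes rose and 2.69% fell). Their median was 0.48, compared with 0.27 over all genes, again without equalised medians. The largest were Tnfrsf12a, the receptor of TWEAK (1.99 ± 0.34), Prom1, also called CD133 (1.19 ± 0.36), and the keratins Krt18 (1.13 ± 0.26) and Krt8 (1.13 ± 0.22), which hepatocytes also express. Of 25 regulators and partners of the members, 7 rose and 2 fell, with a median of 0.31. Their share of rises was close to that of all genes. Rises were led by Igfbp2, which binds IGFs (1.01 ± 0.26), Foxa1, a forkhead factor (0.75 ± 0.28), Igf2r, which clears IGF2 (0.66 ± 0.16), and the integrin Itgav (0.60 ± 0.12). Igfbp3 fell by 0.89 ± 0.24 and Cebpa, a factor of mature hepatocytes, fell by 0.86 ± 0.19. At 4 h, none of the 19 fetal or imprinted genes was called between X4 and S4. Against the unoperated C4 livers of another period, 13 were lower and 2 higher in X4 (33.9% and 11.7% of all genes), and 12 were lower and 2 higher in S4 (31.0% and 12.2% of all genes). C4 was itself above C0, with 5 of the 19 higher and 0 lower (median 0.34, 0.07 over all genes). Against C0, 7 were lower and 2 higher in X4 (median −0.52, −0.20 over all genes). In S4, 10 were lower and 2 higher than in C0 (median −0.52, −0.14 over all genes).

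Across the 19 group means, the genes most like each tested member were ranked by Pearson's r among 11561 genes, as a description with no test (the points are means of 2 to 9 libraries scaled in the same way). For Afp they were Cyp4f16 (0.94), Pmpca (0.93) and Sdr39u1 (0.93), and for H19 Gpi1 (0.86), Cdkn1c (0.86) and Smoc2 (0.83). Spp1 was most like Cyba (0.88), Guca1a (0.83) and Cd68 (0.83), of which Cyba and Cd68 are expressed in macrophages, as Spp1 itself can be. Krt19 was followed by Tspo (0.93), 0610007P14Rik and Stard10 (both 0.88), and Sox9 by Mical2 (0.88), Pdgfc (0.87) and Tecpr2 (0.83). Epcam was most like 3 mitochondrial genes, mt-Co3 (0.88), mt-Nd3 (0.86) and mt-Cytb (0.83). Values for Gpc3 (Gm7110, C1d and Cybb) and Cd24a (Atp5s, Scara3 and Pqbp1) were lower, from 0.75 to 0.79.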

How the data were processed

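Total RNA of single livers was sequenced from stranded poly(A) libraries. The authors trimmed reads with Cutadapt and prinseq-lite, mapped them with TopHat 2.0.13 and Bowtie2 to mm9 and counted them per Ensembl gene with featureCounts, dividing a read with several positions among them. The deposited values are log2 RPKM as the authors computed them, one column per liver. The 84 columns include 4 that match no labelled sample and were not used, and 7 labelled samples were not analysed here. The most frequent low value of RPKM times gene length was taken as 1 read, which gave the depth and the estimated reads; at a tolerance of 0.05, a median of 83.3% of low values were then whole (44.0% in the lowest library).

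Genes with a log2 RPKM over −1.5 in 1 or more libraries were fitted together, on log2(RPKM + 0.25) (fold changes of low genes are understated), with limma 3.58.1 (R 4.3.3), a coefficient for each of 19 groups, a mean-variance trend and Benjamini-Hochberg adjustment within each comparison. Python 3.11.15 was used for sums, motifs and figures. The named genes are all members, the 3 genes most like each tested member, and per list the 4 largest rises and 2 largest falls at 48 h. Cdkn1c at 72 h was chosen after its values were seen. The members and lists were chosen with earlier results of these data known. Alternatives were pseudocounts of 0.1 and 1, other filters, equalised medians, a replicate block, robust spread, single C0 triplicates, 2 groups fitted alone and leaving out livers. Leaving out single livers and fitting 2 groups alone against C0 were added after the data had been seen. Levels of single cholangiocyte marker genes outside the members are not reported here.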

Additional observations from a re-analysis of the deposited data

Results flagged for a closer look

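In 6 of the 64 combinations of a gene and a group of 4 to 10 livers, 1 liver lay far from the others by Dixon's test. Chance gives about 1 in 20. Krt19 stood at 2.36 RPKM in C0 replicate 7 (the next liver had 1.13) and at 0.1004 RPKM, or 5 reads, in X10 replicate 1 (the next had 0.431). Epcam stood at 1.01 RPKM in S4 replicate 5 (next 0.558) and at 0.816 RPKM in X1 replicate 2 (next 0.595). Sox9 reached 2.44 RPKM in X48 replicate 2 (next 1.60). H19 was at 0.0398 RPKM, or 3 reads, in X10 replicate 2 and at 0 in the 5 others.

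The difference between PH and sham livers itself differed between hours for 2 genes (limma with Benjamini-Hochberg adjustment, 2 of 16 tests, where 18.1% of such tests on all genes were called, 17.1% higher and 1.01% lower). For Spp1 it was higher at 48 h than at 20 h by 1.10 ± 0.40 (adjusted p = 0.0473), a call lost without any 1 of 9 livers, among them S20 replicate 2. For Krt19 it was higher at 48 h than at 10 h by 1.22 ± 0.44 (adjusted p = 0.0327), lost without any 1 of 5 livers, among them X10 replicate 1. With equalised medians neither was called.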

How the results depend on the processing

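No call changed direction. With a pseudocount of 1, calls numbered 19 for PH against C0, 8 for sham against C0, 3 for late PH livers matched for time of day, 6 between successive times and 1 between hours. Without the threshold on low values they numbered 1 for PH against sham, 11 for sham against C0 and 0 between hours (limma), and with equalised medians 0 between hours. Against C0 replicates 1 to 3 alone, 13 (PH) and 4 (sham) were called, and against replicates 4 to 6, 24 and 8. With only the 2 compared groups fitted, 5 were called for PH against sham and 9 for sham against C0. Leaving out 1 replicate number at a time gave 1 to 3 calls for PH against sham, 29 to 38 for PH against C0, 9 to 18 for sham against C0, 3 to 6 for late PH livers, 8 to 12 for unoperated and 4-week livers, 4 to 8 between successive times and 1 to 2 between hours. The cause of these changes was not tested. Of 24 genes most like the members, 5 were shared when only C0 and PH groups entered. With the replicate number as a block, 7 calls remained for sham against C0, 4 for PH against sham and 26 for PH against C0. Over 17 pairs of same-numbered PH and sham livers, deviations from the group means correlated at −0.19 to 0.27, over 0.1 in 3 pairs. These correlations gave no ground to pair livers by number, but they cannot show that the numbers carry no shared structure. Depth limits H19, Igf2 and Dlk1, at 0 to 28 reads per library.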
